A study of Homo sapiens with 12 samples.

Results

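The response of Granta-519 cells to chidamide was described across all genes measured. Granta-519 is an established line of mantle cell lymphoma, a cancer of B cells whose typical translocation brings the cyclin gene CCND1 under immunoglobulin control. Of the 12 libraries of polyadenylated RNA in the series, 6 were labelled Granta-519 and chosen by that label, 3 from cells given 4 µM chidamide for 12 h and 3 from cells given vehicle for 12 h. All 6 came from the same line in RPMI1640 medium with 10% serum, with no genetic change named, so they stand for 1 tumour in culture. The other 6 libraries, labelled JeKo-1 and treated alike, shared the estimate of the spread and gave a test of where the change in Granta-519 differed. Labels named peripheral blood as the source of both lines and did not say where the replicates came from. All p-values therefore rest on the spread from library to library, and that spread may be technical. The vehicle libraries held 2153, 2122 and 2068 CPM of CCND1 and 165, 155 and 150.1 CPM of SOX11, whose factor marks this lymphoma, where CPM is the count scaled to the depth of the library. The B-cell genes MS4A1 and CD79A were at 1353, 1418 and 1569 CPM and at 628, 599 and 612 CPM in the same libraries.

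Chidamide is a benzamide that inhibits HDAC1, HDAC2, HDAC3 and HDAC10. Histone deacetylases remove acetyl groups from histone tails and from other proteins, and as parts of corepressor complexes they are best known for keeping genes silent. Inhibitors of these enzymes are used against lymphomas, and in cultured lymphoma cells they are known to raise the cell-cycle inhibitor CDKN1A and to change the balance of the BCL2 family, whose members hold or release mitochondrial cell death.

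Chidamide changed most of the genes that had enough counts to be tested, and large changes were mainly rises of genes that vehicle cells expressed at low levels. Of 15087 genes tested, 10695 (70.9%) differed at an adjusted p under 0.05, with 5970 (39.6%) higher and 4725 (31.3%) lower after the drug (edgeR's quasi-likelihood test, Benjamini-Hochberg). The median log2 change of all tested genes was 0.08. Changes of at least 2-fold were found in 2740 genes (18.2%) that rose and 364 (2.41%) that fell. At 4-fold the counts were 1177 and 8, and at 8-fold 480 and 1. Tested directly against a fold of 2 (edgeR's glmTreat), 1745 genes rose and 140 fell. The 3 chidamide values lay wholly above or below the 3 vehicle values for 11131 genes (73.8%).

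**Figure D1:**
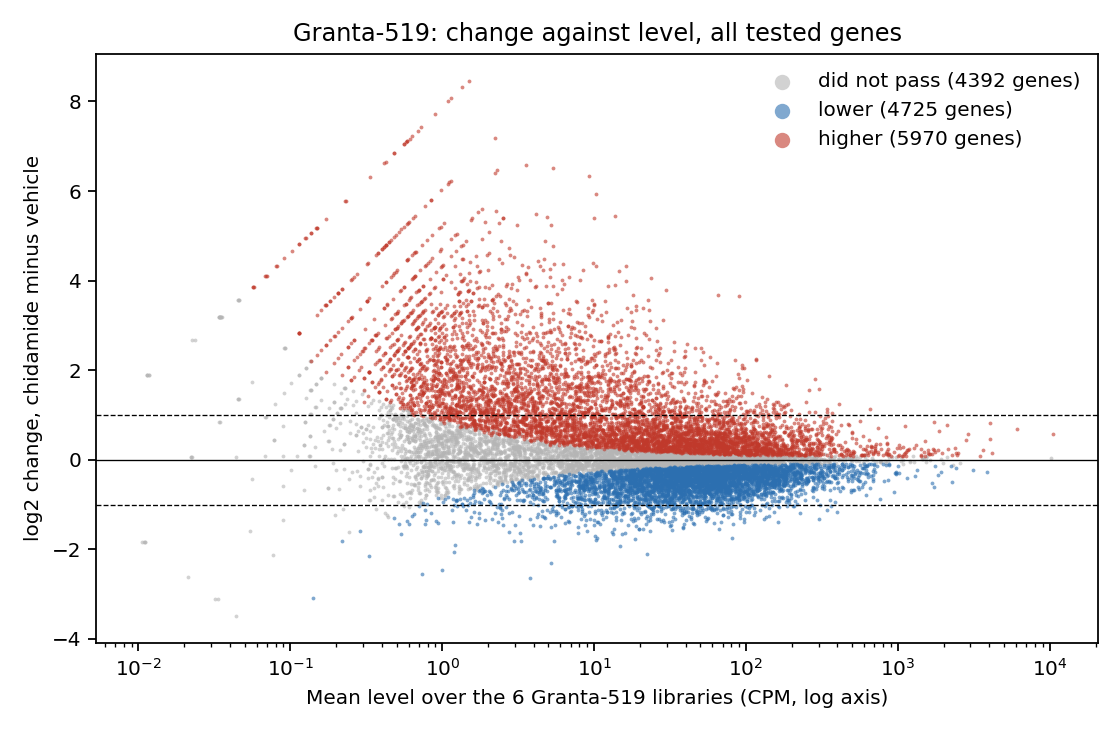
Each point is 1 of the 15087 tested genes, with its mean level over the 6 Granta-519 libraries on a log axis (CPM) and its log2 change on the vertical axis. Red points were called higher, blue points lower and grey points did not pass, and dashed lines mark a fold of 2. Points beyond the upper dashed line lie mostly to the left, at low levels.

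The direction of change differed with the mean level of a gene over both groups. Among genes with a mean of 1 to 10 CPM, 54.3% rose and 11.9% fell, and 1452 of these 3963 genes rose at least 2-fold. Among genes of 100 CPM and over, 33.5% rose and 47.3% fell, and 56 of 2275 rose at least 2-fold. Below 1 CPM, 46.1% rose and 1.55% fell, but there a gene could pass the filter on low counts because it was high in 1 group, so that share does not hold for silent genes as a whole. The mean included the chidamide libraries, so a rise itself moved a gene up in level. A gene silent in vehicle could thus enter a higher band, and no band stands for a vehicle level. More genes were detected after the drug. Vehicle libraries had a count in 17304 to 17572 genes and chidamide libraries in 18766 to 18790, with totals of 14645658 to 15446421 and 13947676 to 14363643 counts. With 0 counts in all 3 vehicle libraries, 360 genes had a count in each chidamide library, against 16 genes in the opposite case. No spike-in RNA was named, so all levels are relative to the library, and fewer cells expressing a gene cannot be told apart from less RNA per cell.

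**Figure D2:**
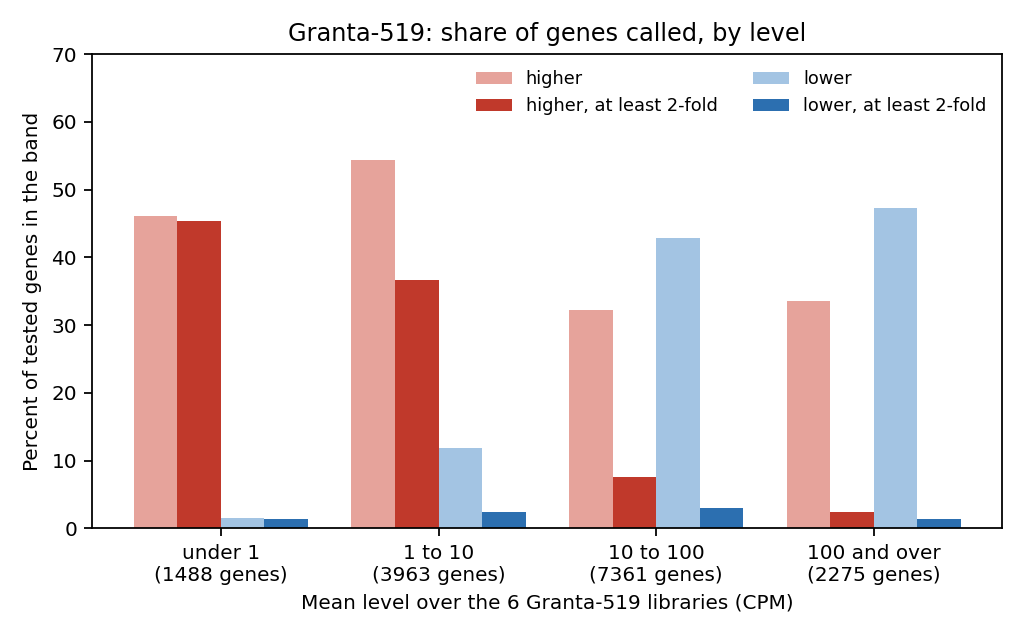
Bars give the percent of tested genes called higher (red) or lower (blue) in 4 bands of mean level over the 6 libraries, with the share changed at least 2-fold in the darker colours. The share that rose at least 2-fold went from 45.3% below 1 CPM to 2.46% at 100 CPM and over, while the share that fell at least 2-fold was 1.34% and 1.32% in those bands. Falls of any size went from 1.55% to 47.3%.

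The largest rises were in genes that every vehicle library held at low levels. They were the 20 largest log2 changes among called genes with a mean of at least 5 CPM and no overlap between groups. FFAR2, which senses acetate and other short fatty acids, stood at 0.0652, 0.0633 and 0.1999 CPM in the vehicle libraries and 10.5, 11.4 and 10.03 CPM in the chidamide libraries. CCR2, the receptor that draws monocytes to the chemokine CCL2, stood at 0.195, 0.1899 and 0.267 CPM in the vehicle libraries and 17.1, 19.4 and 18.2 CPM in the chidamide libraries. In both genes every chidamide library was far above every vehicle library, with log2 changes of 6.51 ± 0.35 and 6.34 ± 0.26 (SE; edgeR adjusted p = 2.10e-23 and 1.88e-27). PTRF, which encodes the caveolar coat protein cavin, went from 0.652, 0.127 and 0.1999 to 21.03, 20.9 and 18.98 CPM. The semaphorin gene SEMA6B went from 0.652, 0.759 and 0.3999 to 31.1, 27.4 and 22.03 CPM.

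The other 16 included adhesion, channel and receptor genes. NRXN2, a presynaptic adhesion gene, rose from 1.499, 1.58 and 1.53 to 29.7, 31.8 and 31.05 CPM. L1CAM, a neural cell adhesion gene, rose from 1.56, 0.949 and 1.93 to 29.2, 27.5 and 26.03 CPM. The sodium channel gene SCN8A rose by 4.26 ± 0.26, the protocadherin gene PCDH1 by 4.37 ± 0.26, SRCIN1, an inhibitor of Src kinase, by 4.08 ± 0.21 and GPRIN3, a gene of neurite outgrowth, by 4.36 ± 0.28 on the log2 scale. CSF1R, the receptor of macrophage colony-stimulating factor, rose from 1.17, 0.949 and 0.7998 to 20.2, 19.9 and 19.1 CPM, and HCAR3, a hydroxycarboxylic acid receptor gene, from 0.717, 1.01 and 0.7998 to 15.8, 16.95 and 15.7 CPM. GMPR, which converts GMP back toward the adenine nucleotides, rose by 5.40 ± 0.22. The RNA-binding genes HNRNPLL and CELF5 rose by 5.25 ± 0.29 and 4.78 ± 0.29. FAM49A (4.40 ± 0.17), TEX19 (4.09 ± 0.22), LOC285766 (4.07 ± 0.13), CPED1 (4.02 ± 0.21) and the Notch coactivator gene MAML3 (4.01 ± 0.23) completed the 20. No library of one group overlapped the other for any of them, which the choice of these genes required.

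The stretches of 250 bases before the start are shown for the leading genes of each direction that had an entry in the RefSeq table (GRCh38.p14), because these genes lead the changes. The coordinates are those of that build, not of hg19, which the submitters' processing notes name. Sequences are written 5′ to 3′ on the gene's strand, with capitals for any match on either strand to CACGTG (an E-box core), to GGGCGG (a GC box bound by Sp1), to TATAAA (the TATA box) or to CCAAT (the box of that name).
FFAR2, chr19:35448007-35448256, plus strand: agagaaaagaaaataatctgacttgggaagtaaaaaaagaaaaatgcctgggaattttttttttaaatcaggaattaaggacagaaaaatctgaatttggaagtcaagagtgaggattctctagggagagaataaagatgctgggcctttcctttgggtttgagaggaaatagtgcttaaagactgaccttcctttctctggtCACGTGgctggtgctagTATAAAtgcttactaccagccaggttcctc
CCR2, chr3:46353861-46354110, plus strand: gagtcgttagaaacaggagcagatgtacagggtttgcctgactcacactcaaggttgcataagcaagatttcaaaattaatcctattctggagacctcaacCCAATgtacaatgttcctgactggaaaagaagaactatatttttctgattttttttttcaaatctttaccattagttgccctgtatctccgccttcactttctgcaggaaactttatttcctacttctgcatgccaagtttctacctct
TRAF3IP1, chr2:238320268-238320517, plus strand: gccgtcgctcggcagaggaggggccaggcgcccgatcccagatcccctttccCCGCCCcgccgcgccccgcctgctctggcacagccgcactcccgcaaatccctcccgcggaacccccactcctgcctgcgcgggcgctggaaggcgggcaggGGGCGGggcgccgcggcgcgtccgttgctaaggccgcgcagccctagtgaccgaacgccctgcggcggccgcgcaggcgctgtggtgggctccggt
CCDC34, chr11:27363216-27363465, minus strand: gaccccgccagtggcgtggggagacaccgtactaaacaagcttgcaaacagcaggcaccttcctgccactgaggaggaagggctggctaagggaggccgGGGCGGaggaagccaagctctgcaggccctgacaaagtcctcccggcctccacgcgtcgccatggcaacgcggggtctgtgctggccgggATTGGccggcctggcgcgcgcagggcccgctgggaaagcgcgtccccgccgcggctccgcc
FFAR2 and CCR2 had 1 and 2 CpG dinucleotides in this stretch, against 35 and 23 for TRAF3IP1 and CCDC34, and a GC content of 38.8% each against 77.6% and 70.4%. The median over all 27305 entries was 11 CpG and 58.0% GC. CACGTG was present in 6.49% of all entries, GGGCGG in 42.3%, TATAAA in 11.1% and CCAAT in 33.0%. These are 4 genes, and they do not stand for their sets. Entries matched 70.9% of the genes that rose at least 2-fold, under the 80% set for such a check. They matched 81.3% of those that fell at least 2-fold and 77.3% of all tested genes. Among the matched genes the medians were 16 CpG and 64% GC for rises, 20 CpG and 65% GC for falls and 20 CpG and 64.4% GC for all tested. Because of the incomplete match, these medians do not stand for the whole sets, and motif shares over the sets are not given.

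The largest falls were smaller in size, from −2.30 to −1.59 on the log2 scale among the 15 that led. TRAF3IP1, a component of intraflagellar transport in cilia, stood at 8.15, 9.24 and 8.46 CPM in the vehicle libraries and 1.64, 2.26 and 1.36 CPM in the chidamide libraries. All its vehicle values exceeded all its chidamide values, and the change was −2.30 ± 0.18 (edgeR adjusted p = 8.45e-17). GPER1, a G-protein-coupled estrogen receptor gene, fell from 124, 121 and 126 to 34.7, 40.05 and 36.3 CPM. The ciliary transport gene IFT22 fell by 3.16-fold, the centriolar gene KIAA0753 by 3.33-fold and IQCE, a gene of ciliary Hedgehog signalling, by 3.26-fold. CCDC34, from 23.00, 23.3 and 24.4 to 6.03, 6.57 and 6.101 CPM, belonged to the same group of 15, as did COMMD9 (−1.79 ± 0.13), the chaperone partner gene DNLZ (−1.78 ± 0.11), the phosphomannomutase gene PMM1 (−1.65 ± 0.12), C8orf82 (−1.64 ± 0.11), TSPAN17 (−1.61 ± 0.11) and CYB5D1. ENDOG, the mitochondrial endonuclease G, changed by −1.64 ± 0.15. FBXL19-AS1 (−1.82 ± 0.19) lies antisense to FBXL19, and no source used here gives the strand setting of the counts, so reads of the pair cannot be told apart.

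Among genes with high counts in Granta-519, chidamide raised BIRC3, FCRL5 and CR2 and lowered U2AF2, DDX39A and HCFC1, among others. The 10 that rose at least 2-fold with the highest CPM, a measure not corrected for gene length, were PSAP, BIRC3, FAM107B, FCRL5, PLCG2, SMIM14, CR2, NLRP2, H1FX and APLP2. CR2, the complement receptor CD21 of mature B cells, stood at 119.8, 135 and 127 CPM in the vehicle libraries and 431, 430.5 and 463 CPM in the chidamide libraries. BIRC3, an NF-kB-induced inhibitor of apoptosis, stood at 226, 239 and 256 CPM in the vehicle libraries and 560.2, 547 and 612 CPM in the chidamide libraries. The groups were far apart in both, with changes of 1.79 ± 0.05 and 1.25 ± 0.05. FCRL5, an Fc receptor-like gene of B cells, rose from 213 ± 4.48 to 468 ± 4.86 CPM, and PSAP, the precursor of lysosomal saposins, from 409 ± 3.99 to 893 ± 33.2 CPM (SD, n = 3). SMIM14, a small membrane protein gene, rose 2.98-fold, the inflammasome gene NLRP2 2.101-fold, the amyloid-like gene APLP2 2.102-fold and FAM107B 2.05-fold.

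The 10 with the highest CPM that fell at least 2-fold were HDGF, U2AF2, MAZ, DDX39A, HCFC1, GNAI2, TOMM40, UBTF, EBNA1BP2 and PRKCSH. HCFC1, a chromatin cofactor of cell proliferation, stood at 451, 441 and 395 CPM in the vehicle libraries and 169.7, 179.8 and 168 CPM in the chidamide libraries. HDGF, a nuclear growth factor, stood at 550.3, 540.1 and 558 CPM in the vehicle libraries and 240.2, 239 and 255 CPM in the chidamide libraries. Each had less than 50% of its vehicle level in every chidamide library. U2AF2, the splicing factor that reads the polypyrimidine tract, fell from 482 ± 14.5 to 238 ± 13.7 CPM, and the mRNA export helicase DDX39A from 407 ± 9.997 to 202 ± 13.7 CPM. MAZ, a zinc finger factor that binds the MYC promoter, fell from 467 ± 7.09 to 213 ± 5.43 CPM while MYC itself was higher. The mitochondrial import pore gene TOMM40 changed by −1.03 ± 0.05, the G-protein gene GNAI2 by −1.18 ± 0.05, UBTF, the RNA polymerase I factor, by −1.03 ± 0.04, the nucleolar gene EBNA1BP2 by −1.03 ± 0.05 and the glucosidase subunit gene PRKCSH by −1.05 ± 0.05.

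**Figure D3:**
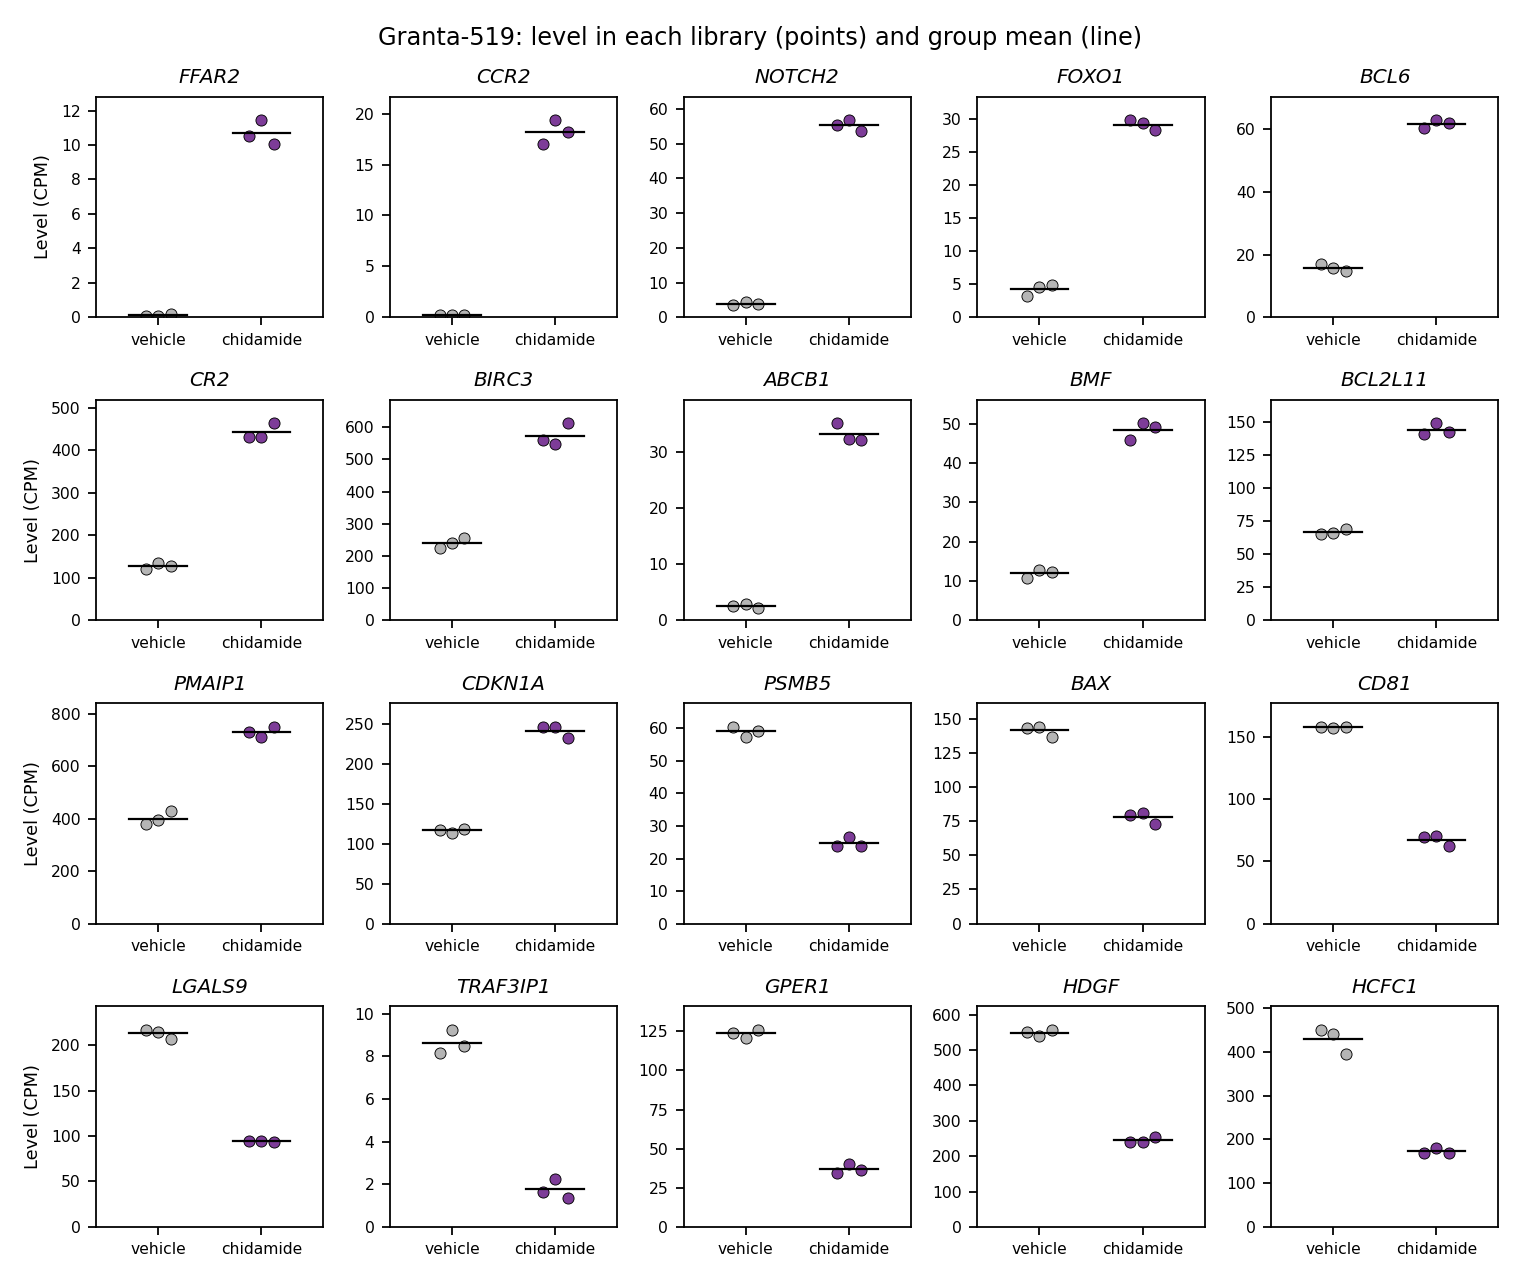
Points give the level (CPM, axis from 0) of 20 genes in each of the 3 vehicle and 3 chidamide libraries, and lines the group means. In every panel all chidamide points lie on the same side of all vehicle points, above them in the panels from FFAR2 to CDKN1A and below them in those from PSMB5 to HCFC1.

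Of the 4 deacetylases that the drug inhibits, HDAC2 rose and HDAC10 fell, and HDAC1 and HDAC3 did not pass. HDAC1 stood at 162, 158 and 168 CPM in the vehicle libraries and 177, 168 and 166 CPM in the chidamide libraries, and HDAC3 at 86.4, 89.8 and 81.4 CPM in the vehicle libraries and 94.9, 91.4 and 89.1 CPM in the chidamide libraries. The groups overlapped in both genes, and neither passed (0.06 ± 0.04 and 0.10 ± 0.05, edgeR adjusted p = 0.173 and 0.102), though both passed as higher under RLE or upper-quartile scaling and in DESeq2, and HDAC3 also without chidamide replicate 3. HDAC2 rose from 149.9, 150.0 and 154 to 176, 178 and 185 CPM. HDAC10 fell from 43.1, 45.00 and 42.1 to 28.8, 26.1 and 24.00 CPM, and no values overlapped in either gene. Of the class IIa enzymes, which shuttle between nucleus and cytoplasm, HDAC7 rose from 31.6 ± 0.428 to 54.2 ± 1.801 CPM and HDAC4 fell from 61.6 ± 0.683 to 48.4 ± 1.03 CPM. HDAC5 went from 90.4 ± 1.88 to 85.99 ± 6.76 CPM without passing (edgeR adjusted p = 0.298), but passed as lower with the 6 libraries alone or no count filter. The tubulin deacetylase gene HDAC6 fell from 45.6 ± 0.728 to 32.8 ± 1.51 CPM. HDAC8 missed the threshold (−0.24 ± 0.11, edgeR adjusted p = 0.0503) and passed in 7 of 13 alternatives. HDAC9 and HDAC11, at 0.521 to 0.849 CPM and 0.9299 to 1.402 CPM, did not pass either (edgeR adjusted p = 0.102 and 0.169), though HDAC9 passed as higher without chidamide replicate 1. Among the NAD-dependent sirtuins, the nucleolar SIRT7 (−0.75 ± 0.08), SIRT2 (−0.73 ± 0.10) and SIRT1 (−0.53 ± 0.07) fell and the mitochondrial SIRT5 rose (0.46 ± 0.10). Of the 18 deacetylase genes 3 rose and 8 fell, with 5 rising under RLE or upper-quartile scaling or in DESeq2. The main shares were 16.7% and 44.4%, beside 39.6% and 31.3% of all tested genes.

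**Figure D4:**
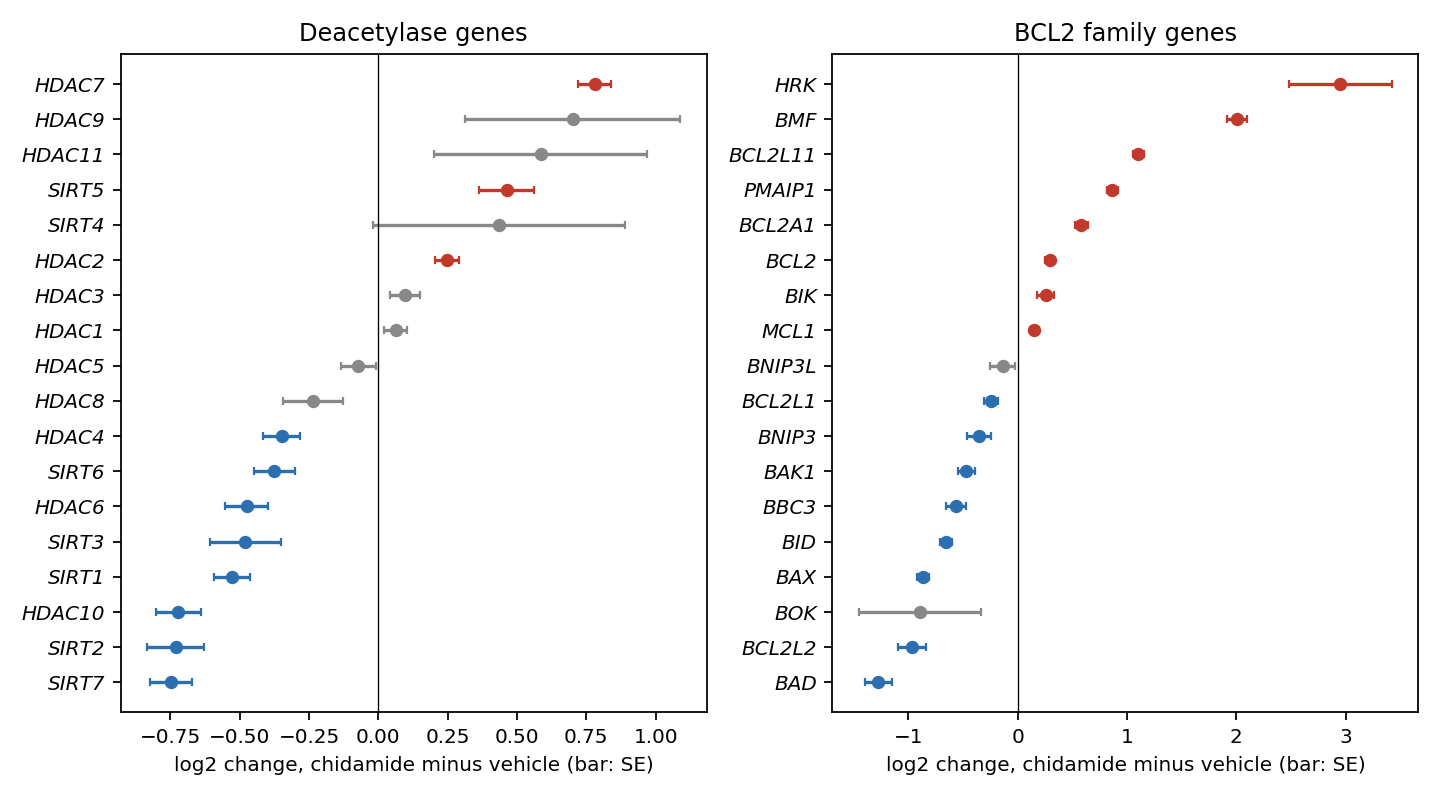
Points give the log2 change of deacetylase genes (left) and BCL2 family genes (right), bars the SE, red genes called higher, blue called lower and grey not passed. HDAC1 and HDAC3 lie near 0 and HDAC10 near the bottom, while HRK, BMF and BCL2L11 lie at the top of the right panel and BAD and BCL2L2 at the bottom.

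The linker histone genes H1FX and H1F0 rose, and Polycomb and DNA methylation genes were called in both directions at shares near those of all tested genes. H1FX, a linker histone gene, stood at 135, 124 and 135 CPM in the vehicle libraries and 405, 400.5 and 362 CPM in the chidamide libraries. H1F0, the replacement linker histone of resting cells and a classic marker of deacetylase inhibition, stood at 2.28, 1.14 and 2.67 CPM in the vehicle libraries and 11.9, 11.7 and 10.8 CPM in the chidamide libraries. The chidamide values of both were well above the vehicle values, by 1.57 ± 0.05 and 2.50 ± 0.20 on the log2 scale. Of 17 tested histone genes 9 rose and 3 fell (52.9% and 17.6%), and 5 fell without a count filter or with the 6 libraries alone. HIST2H2BE, whose reads near-identical histone copies may share, rose from 1.06 to 4.35 CPM. The variant genes H2AFY2 and H2AFZ fell (log2 −0.88 ± 0.21 and −0.24 ± 0.04). The de novo DNA methyltransferase gene DNMT3B rose from 8.56 ± 0.533 to 29.3 ± 1.87 CPM. EZH2, the histone methyltransferase of Polycomb complex PRC2, rose from 173 ± 4.27 to 231 ± 11.1 CPM, and its partner JARID2 from 40.6 ± 1.56 to 63.3 ± 2.54 CPM, while the PRC1 genes PCGF1 and BMI1 fell (log2 −0.97 ± 0.13 and −0.59 ± 0.16) and MBD3, of the NuRD corepressor, fell from 247 ± 13.1 to 134 ± 7.76 CPM. In that list of 34 genes 12 rose and 12 fell, 35.3% each way beside 39.6% and 31.3% of all tested genes. HEXIM1, the inhibitor of the elongation kinase P-TEFb, rose from 111 ± 4.74 to 188 ± 0.688 CPM. The elongation genes MLLT3, AFF1 and ELL2 also rose, by 1.04 ± 0.10, 0.75 ± 0.05 and 0.68 ± 0.07, against falls of NELFE (−0.93 ± 0.08) and the kinase CDK7 (−0.69 ± 0.08). Of 30 elongation and BET genes 7 rose and 11 fell (23.3% and 36.7%), so the falls were near the share of all tested genes. Under upper-quartile scaling 13 rose.

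In the BCL2 family, BH3-only genes that start mitochondrial cell death split between strong rises and falls. BMF stood at 10.8, 12.9 and 12.3 CPM in the vehicle libraries and 45.9, 50.1 and 49.1 CPM in the chidamide libraries. BCL2L11, which encodes BIM, stood at 65.7, 66.3 and 69.6 CPM in the vehicle libraries and 142, 149 and 143 CPM in the chidamide libraries. PMAIP1, which encodes NOXA, the partner of MCL1, stood at 379, 396 and 429 CPM in the vehicle libraries and 729.8, 711 and 752 CPM in the chidamide libraries. All 3 rose without overlap between groups, by 2.01 ± 0.09, 1.10 ± 0.05 and 0.87 ± 0.05 (edgeR adjusted p = 8.90e-27, 1.98e-26 and 9.85e-18). BAX, the pore-forming effector, fell from 143, 144 and 137 to 79.7, 80.8 and 72.6 CPM. BAD fell from 19.7 ± 2.82 to 8.11 ± 1.16 CPM, and BID and BBC3, which encodes PUMA, fell (log2 −0.65 ± 0.06 and −0.56 ± 0.09). HRK, a BH3-only gene below the level set for naming and chosen after its values were seen, went from 9 to 68 counts over 3 libraries. Of 13 BH3-only and pore-forming genes 5 rose and 6 fell (38.5% and 46.2%, beside 39.6% and 31.3% of all tested genes). Among the antiapoptotic genes, BCL2 was at 585, 599.7 and 602 CPM in vehicle and 699.8, 715 and 774 CPM after the drug, a rise of 0.29 ± 0.04. MCL1 went from 256, 263 and 263 to 292, 288 and 290.4 CPM, a rise of 0.15 ± 0.04 that did not pass without a count filter, and BCL2A1 rose from 47.4 ± 0.729 to 70.9 ± 2.94 CPM. BCL2L2 fell from 10.5 ± 0.473 to 5.35 ± 0.316 CPM and BCL2L1, which encodes BCL-XL, from 44.5 ± 2.23 to 37.5 ± 0.518 CPM.

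Caspase and p53 pathway genes were called in both directions, as all tested genes were (39.6% higher and 31.3% lower). The initiator caspase gene CASP10 rose from 6.37 ± 0.927 to 19.1 ± 2.21 CPM and the executioner gene CASP6 fell from 23.9 ± 2.46 to 15.1 ± 1.16 CPM. Of 24 genes in that list 11 rose and 7 fell (45.8% and 29.2%). CDKN1A, which encodes p21, stood at 118, 114 and 118 CPM in the vehicle libraries and 245, 246 and 232 CPM in the chidamide libraries, with no overlap. Its neighbours in the list of p53 targets, the antiproliferative genes BTG2 and BTG1, rose by 1.01 ± 0.05 and 0.87 ± 0.05, whereas PHLDA3, TP53I3 and SESN2 fell (log2 −0.86 ± 0.09, −0.72 ± 0.15 and −0.60 ± 0.09). Of 34 such genes 12 rose and 15 fell (35.3% and 44.1%), and BAX, BBC3 and PMAIP1 belong to this list as well as to that of BH3-only and pore-forming genes.

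Among B-cell transcription factor genes BCL6 and FOXO1 rose and PAX5 fell. BCL6, the repressor that holds the germinal-centre state, stood at 16.9, 15.7 and 14.9 CPM in the vehicle libraries and 60.4, 62.9 and 62.1 CPM in the chidamide libraries. FOXO1, which drives the germinal-centre dark zone, stood at 3.26, 4.62 and 4.87 CPM in the vehicle libraries and 29.8, 29.3 and 28.3 CPM in the chidamide libraries. PAX5, which maintains B-cell identity, stood at 706, 711 and 664 CPM in the vehicle libraries and 482, 482 and 474 CPM in the chidamide libraries. BCL6 and FOXO1 were several times higher in each chidamide library, and PAX5 lower in each (1.97 ± 0.07, 2.78 ± 0.10 and −0.53 ± 0.04). FOXP1 and LMO2 rose with them, from 2.704 ± 0.256 to 10.3 ± 0.882 CPM and from 3.28 ± 0.807 to 7.900 ± 0.6103 CPM, and TCF3, SPI1 and POU2F2 fell (log2 −0.45 ± 0.04, −0.78 ± 0.08 and −0.39 ± 0.04). IRF4, needed for plasma cells, rose from 463 ± 11.8 to 604 ± 15.1 CPM, and PRDM1, the plasma-cell regulator BLIMP1, from 12.5 ± 1.49 to 18.8 ± 0.316 CPM. Of 30 B-cell transcription factor genes 19 rose and 6 fell, with a median of 0.32, and 10 fell without a count filter. The main shares were 63.3% and 20%, beside 39.6% and 31.3% of all tested genes. The germinal-centre genes SERPINA9 and RGS13 rose by 1.68 ± 0.07 and 1.74 ± 0.17, and MME, which encodes CD10, from 0.561 to 4.31 CPM. The plasma-cell gene SDC1 fell from 91.6 ± 5.89 to 54.8 ± 2.62 CPM and the memory marker CD27 from 16.7 ± 1.45 to 9.93 ± 0.415 CPM. Other plasma-cell genes, some named after their values were seen, went both ways. CD38 and JCHAIN rose by 0.82 ± 0.06 and 0.34 ± 0.05, TNFRSF17, DERL3 and FKBP11 fell, and MZB1 did not pass. Of 18 markers of these stages 11 rose and 5 fell (61.1% and 27.8%).

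Surface markers of the line moved both ways. CD5, the T-cell antigen that mantle cell lymphoma usually carries, rose from 1.04, 0.949 and 1.200 to 5.75, 7.204 and 7.39 CPM. MS4A1, which encodes CD20, rose from 1447 ± 111 to 2253 ± 127 CPM. The inhibitory coreceptor CD22 rose from 311 ± 17.4 to 534 ± 21.6 CPM, and CD24 likewise, from 189.8 ± 8.18 to 268 ± 7.79 CPM. CD79A and CD79B, the signalling chains of the B-cell receptor, fell (log2 −0.28 ± 0.04 and −0.35 ± 0.05), as did CCND1 (−0.28 ± 0.04) and SOX11 (−0.24 ± 0.05). Of the 12 B-cell and mantle cell markers 5 rose and 6 fell (41.7% and 50%, beside 39.6% and 31.3% of all tested genes). Their summed level was 6219 to 6233 CPM in vehicle and 6534 to 6643 CPM after the drug.

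Along the B-cell receptor pathway the receptor chains, BTK and BLNK fell while PLCG2 and FYN rose. BTK, the kinase targeted by ibrutinib, went from 125, 139 and 126 to 96.9, 97.8 and 100.4 CPM, a log2 change of −0.40 ± 0.05. The adaptor BLNK fell from 163 ± 4.66 to 98.2 ± 4.41 CPM, and the inhibitory phosphatases INPP5D and PTPN6 fell from 351 ± 8.37 to 233 ± 12.2 CPM and from 599 ± 19.9 to 376 ± 13.7 CPM. CD81, a tetraspanin gene of the B-cell surface, stood at 158, 158 and 158 CPM in the vehicle libraries and 69.3, 70.6 and 62.6 CPM in the chidamide libraries, with no overlap. PLCG2, the phospholipase activated by BTK, rose from 224, 224 and 209.7 to 468, 466 and 452 CPM. The Src-family kinase gene FYN rose from 8.47 ± 0.694 to 26.5 ± 1.58 CPM. LAIR1, an inhibitory collagen receptor gene, went from 8 to 352 counts over the 3 libraries. Of 35 genes in the pathway 23 rose and 10 fell, with a median log2 change of 0.27. These shares were 65.7% and 28.6%, beside 39.6% and 31.3% of all tested genes, so the falls were near the share of all.

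CXCR5, which brings B cells to the follicle, stood at 2.35, 1.33 and 2.07 CPM in the vehicle libraries and 29.4, 33.6 and 28.7 CPM in the chidamide libraries. IL2RA, the high-affinity chain of the interleukin-2 receptor, stood at 0.1303, 0.127 and 0.0666 CPM in the vehicle libraries and 5.82, 5.01 and 4.000 CPM in the chidamide libraries, and the thymic stromal lymphopoietin receptor CRLF2 rose from 1.25 ± 0.278 to 9.62 ± 1.64 CPM. Vehicle values of CXCR5 and IL2RA were low in each library and chidamide values high in each (4.00 ± 0.12 and 5.41 ± 0.41). The integrin genes ITGAX (2.05 ± 0.13), ITGA4 (−0.44 ± 0.05) and ITGB2 (−0.44 ± 0.07) did not move together. Of 35 tested chemokine, lipid and adhesion receptor genes 26 rose and 5 fell (median 0.76), and of 27 cytokine receptor genes 21 rose and 2 fell (median 0.72). The 2 that fell were IL2RG and IL27RA, by −0.25 ± 0.04 and −0.30 ± 0.06. Of all tested genes 39.6% rose and 31.3% fell. Another 4 genes of each list were too low to be tested, and a low gene could pass the filter because the drug raised it, so the counts do not hold for the lists as wholes.

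In the TNF family, TNFRSF11A, the receptor RANK, rose from 3.26, 5.51 and 3.47 to 38.4, 47.3 and 39.7 CPM, and its ligand gene TNFSF11 from 0.4297 to 2.92 CPM. The OX40 ligand gene TNFSF4 rose from 21.8 ± 1.01 to 69.7 ± 2.34 CPM. TNFRSF14, which encodes HVEM, fell from 38.9 ± 1.52 to 22.7 ± 1.71 CPM, and TNFRSF17, which encodes BCMA, from 19.5 ± 0.961 to 14.7 ± 1.05 CPM. Of 33 tested genes of the family 20 rose and 5 fell (60.6% and 15.2%, beside 39.6% and 31.3% of all tested genes), and 6 were too low to be tested, so the same limit applies. Among costimulators and immune checkpoint ligands, CD86 rose from 6.19, 7.28 and 6.26 to 26.9, 30.7 and 27.05 CPM, and PVR and PVRL2, ligands of DNAM-1 and TIGIT, rose by 2.12 ± 0.16 and 2.23 ± 0.30. The stress ligand gene ULBP1 rose from 1.36 to 4.98 CPM. LGALS9, which encodes galectin-9, a TIM-3 ligand, stood at 217, 215 and 207 CPM in the vehicle libraries and 94.9, 94.6 and 93.4 CPM in the chidamide libraries, with no overlap. CD276 and ICOSLG fell (log2 −0.73 ± 0.08 and −0.67 ± 0.05). Of 29 tested genes of this list 17 rose and 5 fell (58.6% and 17.2%), with a median of 0.89. Without a count filter 8 fell. The list held 34 genes, so the same limit applies. The summed level of those tested did not rise, at 1437 to 1487 CPM in vehicle and 1406 to 1449 CPM after the drug.

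Among developmental signalling genes NOTCH2, a Notch receptor gene, rose without overlap. It stood at 3.65, 4.49 and 3.73 CPM in the vehicle libraries and 55.3, 56.8 and 53.8 CPM in the chidamide libraries, so that each chidamide library held more than 10 times the level of any vehicle library (3.80 ± 0.09, edgeR adjusted p = 1.07e-38). The Notch target HES4 rose from 0.151 to 2.64 CPM. RNF43, which removes Wnt receptors, rose from 1.17 ± 0.229 to 8.37 ± 0.432 CPM, the inhibitory SMAD gene SMAD6 from 0.217 to 2.66 CPM, and the ligand genes WNT5B, WNT5A and TGFB1 fell (log2 −1.14 ± 0.09, −0.67 ± 0.09 and −0.57 ± 0.05). Of 49 tested genes 33 rose and 6 fell, 21 of the rises being at least 2-fold. These shares were 67.3% and 12.2%, beside 39.6% and 31.3% of all tested genes. Feedback regulators of MAP kinase and G-protein signalling rose in 20 and fell in 4 of 26 (median 0.96). RGS1, which dampens chemokine receptor signals in B cells, rose from 41.7, 45.3 and 48.9 to 155, 151 and 164 CPM, RGS16 from 10.99 ± 1.58 to 33.1 ± 1.67 CPM and the MAP kinase inhibitor gene SPRY1 from 1.24 to 8.99 CPM, while RGS14 and RGS19 fell (log2 −0.66 ± 0.06 and −0.63 ± 0.06).

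Transcription factor families with known links to deacetylases were mixed. MYC stood at 83.99, 85.1 and 86.04 CPM in the vehicle libraries and 122, 128 and 121 CPM in the chidamide libraries, with every chidamide value above every vehicle value (0.54 ± 0.05). KLF2, a quiescence factor of B cells, stood at 6.19, 6.202 and 7.86 CPM in the vehicle libraries and 6.71, 6.99 and 6.58 CPM in the chidamide libraries, with overlapping groups (edgeR adjusted p = 0.991). KLF8 and KLF10 rose by 1.34 ± 0.16 and 0.74 ± 0.06, and SP2 and SP1 fell (log2 −0.68 ± 0.08 and −0.27 ± 0.05). Of 18 tested genes of this family 9 rose and 4 fell (50% and 22.2%, beside 39.6% and 31.3% of all tested genes). MEF2A, a factor that class IIa deacetylases hold in check, rose from 113 ± 3.07 to 181 ± 4.305 CPM and MEF2D fell from 185 ± 9.78 to 127 ± 1.34 CPM. The orphan receptor genes NR4A1 and NR4A3, known MEF2 targets, rose by 0.94 ± 0.09 and 2.14 ± 0.21. Of the 7 genes of this list 4 rose and 1 fell (57.1% and 14.3%). In the circadian clock, HLF, NFIL3, BHLHE41 and RORA rose, by 2.58 ± 0.18, 1.63 ± 0.11, 1.79 ± 0.14 and 1.40 ± 0.17, and PER1 fell from 16.3 ± 1.33 to 11.4 ± 0.423 CPM. Of 17 clock genes 6 rose and 3 fell (35.3% and 17.6%). The count of falls was 1 without chidamide replicate 1 or under upper-quartile scaling. It was 5 with the 6 libraries alone or with no count filter.

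Nearly all proteasome genes fell. Of 42 proteasome genes, which encode the complex that degrades ubiquitin-tagged proteins, 39 fell and 1 rose, with a median of −0.50, beside 31.3% of all tested genes lower. Falls were commoner at higher levels, at 42.9% of genes of 10 to 100 CPM and 47.3% of those of 100 CPM and over. PSMB5, the chymotrypsin-like catalytic subunit that bortezomib binds, stood at 60.5, 57.5 and 59.3 CPM in the vehicle libraries and 23.9, 26.7 and 23.8 CPM in the chidamide libraries. PSMB6, another catalytic subunit, stood at 48.9, 45.6 and 45.8 CPM in the vehicle libraries and 23.2, 20.98 and 21.02 CPM in the chidamide libraries. All vehicle values of both exceeded all chidamide values, and the falls were −1.25 ± 0.07 and −1.11 ± 0.07 (edgeR adjusted p = 9.56e-24 and 2.65e-19). The ATPase gene PSMC3 and the lid gene PSMD8 fell from 195 ± 2.02 to 109 ± 5.63 CPM and from 217 ± 7.49 to 121 ± 1.91 CPM. The exceptions were PSMD5, an assembly chaperone gene, which rose by 0.27 ± 0.07 and did not pass without a count filter, and PSMB9 and PSME4, which did not pass (−0.04 ± 0.05 and 0.09 ± 0.04) and are named after their values were seen. With RLE or upper-quartile scaling, DESeq2, the block or without chidamide replicate 2, 2 proteasome genes rose, and with no count filter none did.

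Most genes of mitochondrial ribosomes, aminoacyl-tRNA synthetases and ribosome biogenesis fell (73%, 70.3% and 67.9%), beside 31.3% of all tested genes. Of genes at 10 to 100 CPM and at 100 CPM and over, 42.9% and 47.3% fell, and these lists were not matched for level. Of 74 mitochondrial ribosomal protein genes 54 fell and 5 rose (median −0.38), and 3 rose without vehicle replicate 2 or with the 6 libraries alone and 2 with no count filter. MRPL9 fell from 49.5, 49.5 and 50.6 to 26.7, 25.6 and 25.2 CPM, and MRPS34, MRPS12 and MRPL28 by −0.88 ± 0.06, −0.86 ± 0.06 and −0.85 ± 0.05, against a rise of 0.36 ± 0.06 in MRPS6. Of 37 aminoacyl-tRNA synthetase genes 26 fell and 4 rose (8 under upper-quartile scaling, 2 with no count filter), with WARS, the tryptophan enzyme, down from 307 ± 8.93 to 183 ± 5.13 CPM and DARS, the aspartate enzyme, up from 88.3 ± 3.07 to 131 ± 5.86 CPM. Of 53 ribosome biogenesis genes 36 fell and 5 rose (8 and 12 under RLE and upper-quartile scaling, 3 with the 6 libraries alone or no count filter). UBTF, which opens ribosomal DNA to RNA polymerase I, stood at 273, 278 and 267 CPM in the vehicle libraries and 136, 130.3 and 134 CPM in the chidamide libraries. NPM3, WDR74 and NOP16 fell (log2 −0.92 ± 0.06, −0.91 ± 0.07 and −0.83 ± 0.06), while the nucleolar genes NPM1, NOP56 and GNL3 rose by 0.41 ± 0.04, 0.31 ± 0.04 and 0.28 ± 0.04.

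Most nucleotide synthesis, mitochondrial carrier and splicing genes fell as well (65.9%, 54.1% and 58.8%), beside 31.3% of all tested genes. Of genes at 10 to 100 CPM and at 100 CPM and over, 42.9% and 47.3% fell, which is nearer to the carrier and splicing shares. Of 41 nucleotide and folate genes 27 fell and 6 rose, with the thymidylate kinase gene DTYMK down from 125 ± 3.31 to 70.2 ± 4.29 CPM and the mitochondrial folate gene MTHFD2 up from 188 ± 5.27 to 281 ± 5.48 CPM. Of 37 mitochondrial carrier genes 20 fell and 7 rose. SLC25A1, the citrate carrier, fell from 61.00 ± 3.33 to 28.8 ± 1.71 CPM and SLC25A28, an iron carrier, from 22.05 ± 0.547 to 9.63 ± 1.38 CPM, while SLC25A37, the mitoferrin of heme synthesis, rose from 44.03 ± 0.483 to 90.9 ± 2.13 CPM. Of 51 splicing factor genes 30 fell and 11 rose (7 with the 6 libraries alone, 6 with no count filter), with HNRNPM and SF3A1 down (log2 −0.66 ± 0.04 and −0.64 ± 0.04) and SRSF8 and SRSF6 up by 0.54 ± 0.05 and 0.36 ± 0.04.

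**Figure D5:**
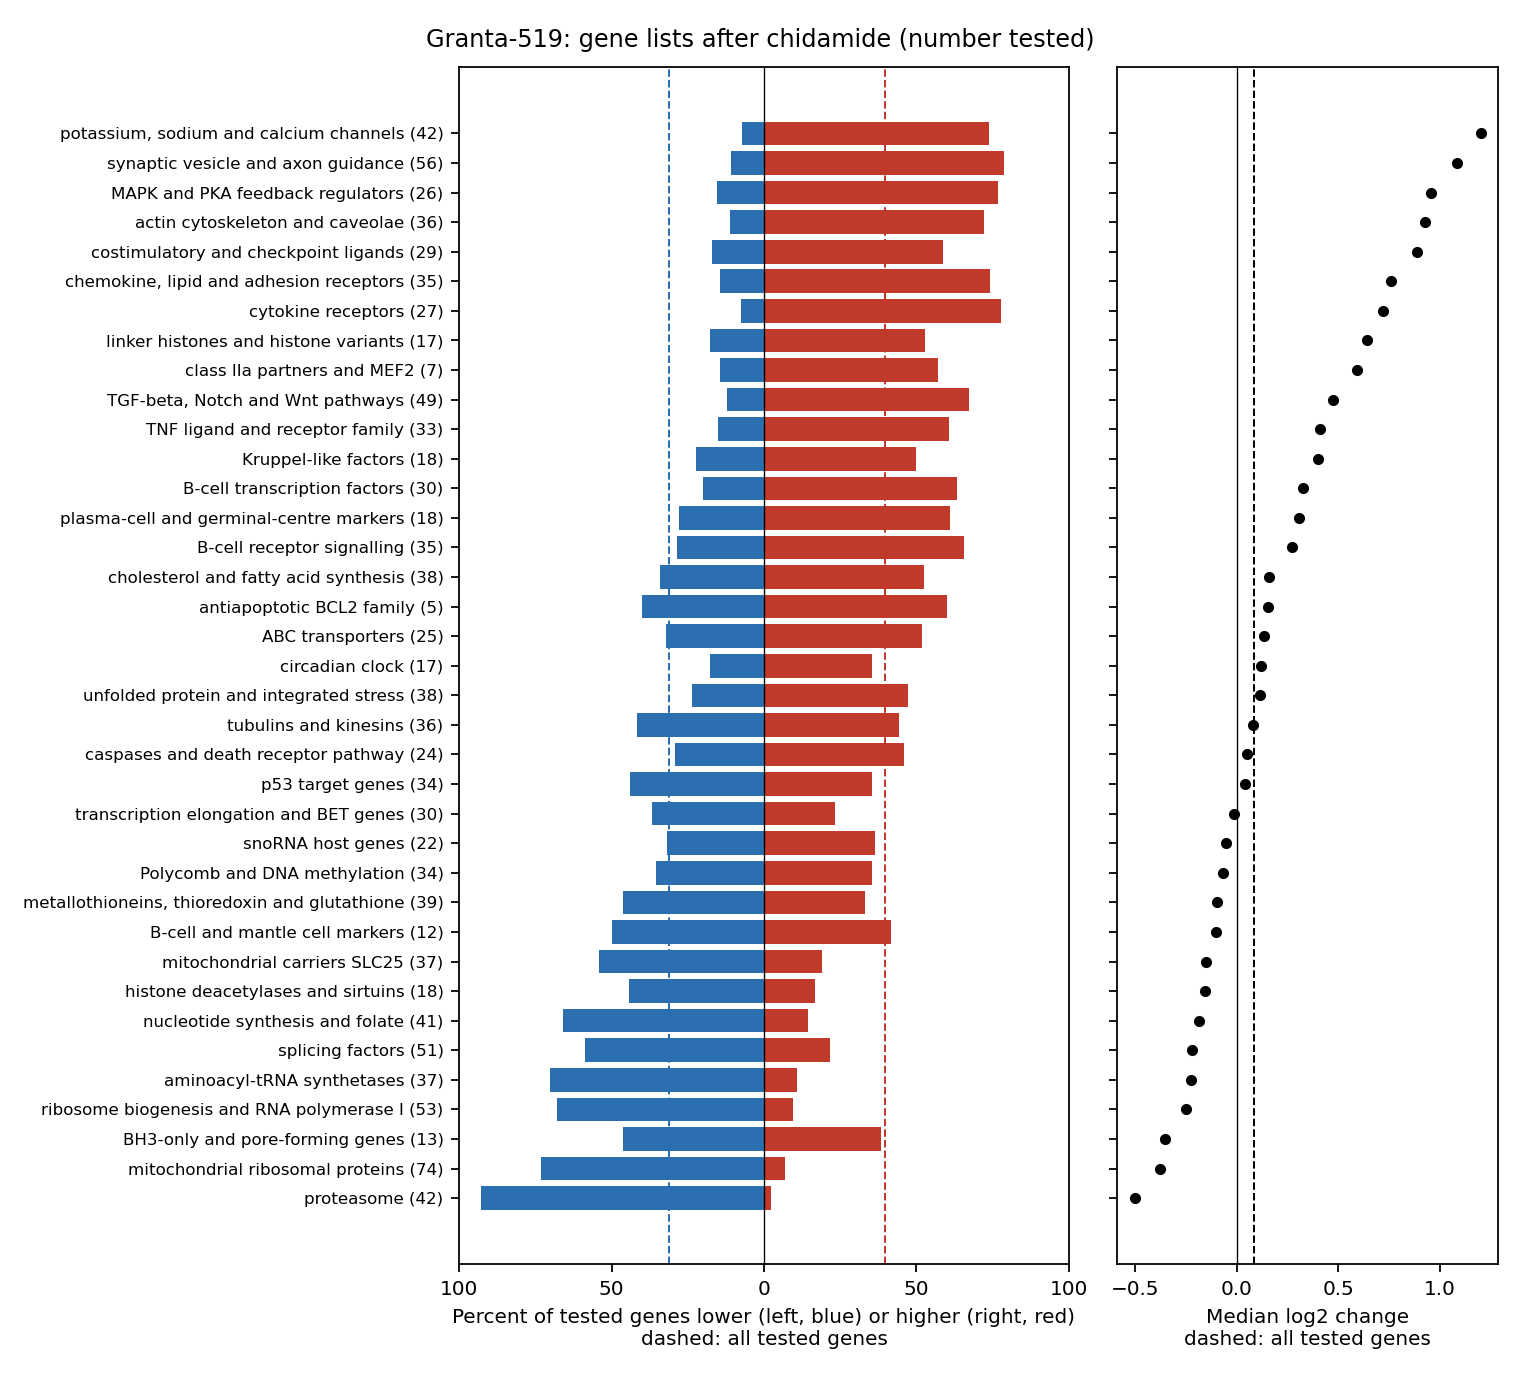
Bars give the percent of tested genes called lower (left, blue) and higher (right, red) in each of 37 gene lists, with the number tested in brackets, and points the median log2 change. Dashed lines mark all tested genes (31.3% lower, 39.6% higher, median 0.08). Proteasome genes lie at the bottom and ion channel genes at the top.

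Lipid synthesis and stress response genes split. Of 38 cholesterol and fatty acid genes 20 rose and 13 fell (52.6% and 34.2%, beside 39.6% and 31.3% of all tested genes). The sterol oxidase gene MSMO1 rose from 59.00 ± 1.84 to 101 ± 7.304 CPM and LSS, which closes the sterol ring, fell from 84.00 ± 4.67 to 45.3 ± 3.698 CPM. ABCG1 and MYLIP, targets of the oxysterol receptor LXR, rose from 1.58 ± 0.3499 to 16.7 ± 0.979 CPM and from 18.6 ± 0.913 to 46.7 ± 0.663 CPM. Of 38 unfolded protein and integrated stress genes 18 rose and 9 fell (47.4% and 23.7%). Without a count filter 9 rose, and under upper-quartile scaling or in DESeq2 5 fell. HERPUD1, of endoplasmic reticulum degradation, rose from 105, 104 and 109 to 234, 231 and 229 CPM and DDIT4, an mTOR inhibitor, from 33.9, 35.8 and 31.6 to 76.1, 77.9 and 72.2 CPM, while DDIT3, which encodes CHOP, fell (log2 −0.53 ± 0.13). HMOX1, heme oxygenase, rose from 6.65, 6.83 and 7.798 to 31.8, 33.7 and 31.2 CPM. The metallothionein genes MT1G and MT1E rose by 1.83 ± 0.16 and 0.91 ± 0.10, but near-identical copies of this family make the split of their reads uncertain. KEAP1, the inhibitor of NRF2, and its target NQO1 fell (log2 −0.80 ± 0.05 and −0.82 ± 0.13), and SOD2 fell (log2 −0.72 ± 0.08). Of 39 redox genes 13 rose and 18 fell (33.3% and 46.2%).

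The drug efflux gene ABCB1 rose most among the tested ABC transporters, with ABCG1 close to it (3.40 ± 0.19 on the log2 scale). ABCB1, which encodes P-glycoprotein, stood at 2.61, 2.97 and 2.199 CPM in the vehicle libraries and 35.1, 32.4 and 32.1 CPM in the chidamide libraries, each chidamide value more than 10 times each vehicle value (3.67 ± 0.14, edgeR adjusted p = 2.36e-29). ABCA2, of lysosomal lipids, rose from 7.16 ± 0.533 to 33.5 ± 1.81 CPM, and the ribosome-associated ABCF2 fell from 139 ± 2.18 to 81.5 ± 2.16 CPM. Of 25 tested transporters 13 rose and 8 fell (52% and 32%, beside 39.6% and 31.3% of all tested genes). Among 22 host genes of small nucleolar RNAs 8 rose and 7 fell, 36.4% and 31.8%, near the shares of all tested genes. ZFAS1 was up from 86.3 ± 3.25 to 118 ± 0.483 CPM and DANCR down from 74.3 ± 2.33 to 50.4 ± 1.91 CPM. Without a count filter 3 host genes rose and 11 fell.

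Genes of synapses, ion channels and the actin cytoskeleton rose in most of those tested, beside 39.6% of all tested genes. Rises were commoner at low levels, at 54.3% of genes of 1 to 10 CPM, and the lists were not matched for level. Of 66 synaptic and axon guidance genes 56 were tested, and 44 rose and 6 fell (3 under upper-quartile scaling). Of 57 ion channel genes 42 were tested, and 31 rose and 3 fell. A silent gene left these lists while one raised by the drug stayed, so the counts do not hold for the lists as wholes. SYT11, a synaptotagmin gene, stood at 9.904, 10.4 and 7.998 CPM in the vehicle libraries and 121, 124 and 117 CPM in the chidamide libraries. The potassium channel gene KCNH3 rose from 0.804 ± 0.446 to 10.5 ± 1.26 CPM. SYT7 was close to 0 in vehicle and went from 2 to 190 counts over 3 libraries. KCNN4, the calcium-activated potassium channel of lymphocytes, fell from 95.2 ± 2.34 to 72.6 ± 4.22 CPM. The semaphorin gene SEMA4C and the plexin gene PLXNB1 fell as well (log2 −0.86 ± 0.09 and −0.73 ± 0.07).

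Of 36 tested actin and caveolar genes 26 rose and 4 fell (median 0.92). These shares were 72.2% and 11.1%, beside 39.6% and 31.3% of all tested genes. The unconventional myosin genes MYO10 and MYO1D rose from 0.779 ± 0.0933 to 11.9 ± 1.14 CPM and from 2.19 ± 0.208 to 14.4 ± 1.296 CPM, and the leukocyte formin FMNL1 and vimentin, VIM, fell (log2 −0.68 ± 0.05 and −0.32 ± 0.04). Of 36 tubulin, stathmin and kinesin genes 16 rose and 15 fell (44.4% and 41.7%). The neuronal genes KIF5A and MAP2 rose from 0.585 to 4.65 CPM and from 0.369 to 6.05 CPM, and STMN1, which destabilises microtubules, fell from 263 ± 14.7 to 182 ± 4.74 CPM.

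Some markers of other blood and tissue cells rose, while others had no counts. CD3E, CD4, CD8A, ZAP70, ITGAM, MS4A7 and COL1A1 and the markers at 0 are named after their values were seen. For T cells and natural killer cells, 10 of 25 markers could be tested and 8 rose, and the summed level of those tested went from 71.3 to 74.1 CPM in vehicle to 221 to 232 CPM after the drug. The kinase gene LCK and the costimulator CD28 gave most of that sum, rising from 22.5 ± 0.855 to 56.1 ± 3.54 CPM and from 39.4 ± 1.29 to 140.1 ± 2.12 CPM. Some genes of this list rose from low levels, CD247 from 114 to 553 counts over 3 libraries and IL7R from 6 to 128 counts. CD8A rose from 9 to 69 counts, CD4 from 13 to 63 counts and CD3E from 0 to 13 counts. ZAP70 went the other way, from 44 to 21 counts, and did not pass (log2 −0.97 ± 0.49). CD3D, CD3G, CD8B, TRAT1, GZMA and GZMK had 0 counts in all 6 libraries. Of 21 myeloid markers 9 were tested, of which 7 rose, and their sum went from 84.9 to 90.3 CPM to 263 to 275 CPM. CSF1R and ITGAX were among them, with VCAN up from 9.38 ± 0.137 to 31.7 ± 2.12 CPM, ITGAM from 24.9 ± 0.275 to 79.3 ± 2.94 CPM, MS4A7 from 43.1 ± 3.05 to 106 ± 3.42 CPM and TYROBP from 18 to 144 counts over 3 libraries. S100A8, S100A12, CD163 and FCGR3A had 0 counts in all 6 libraries, and LYZ had 2 and 4 counts over the vehicle and chidamide libraries. Of 16 erythroid and megakaryocytic markers 5 were tested and 2 rose, with the integrin ITGB3 up from 13.2, 12.2 and 11.7 to 66.6, 66.9 and 66.4 CPM and HBB at 0 counts. Of 21 epithelial and stromal markers 7 were tested and 5 rose, with CDH1, which encodes E-cadherin, up from 2.85 ± 0.831 to 10.3 ± 0.3899 CPM. The collagen gene COL1A1 went from 59.6 ± 3.15 to 65.6 ± 2.84 CPM and did not pass. In the order given, 80%, 77.8%, 40% and 71.4% of the tested markers rose, beside 39.6% of all tested genes. The erythroid and megakaryocytic share was thus near that of all. Rises were commoner at low levels, at 46.1% of genes below 1 CPM and 54.3% of those of 1 to 10 CPM. Leaving out the untested members leaves genes that could pass because they rose, so these counts do not describe the lists as wholes. The part of such cells in the other results was not tested.

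Where Granta-519 differed from the libraries labelled JeKo-1 was tested as the difference of the drug effects. Those libraries had 0 counts of SOX11 and 49 counts of CCND1 over all 6, so they are called by their label. The effect differed in 5956 genes (39.5%), with a more positive change in Granta-519 in 2941 (19.5%) and a more negative change in 3015 (20%, edgeR's quasi-likelihood test, Benjamini-Hochberg). A more positive change made up 49.4% of these calls, but 30.0% when libraries were scaled by their size alone and 27.1% with no count filter. MYC changed by 0.54 in Granta-519 and by −0.70 under the JeKo-1 label, a difference of 1.24 ± 0.06 (edgeR adjusted p = 2.53e-23). BCL6 differed by 2.10 ± 0.08 and BCL2L11 by 1.11 ± 0.07, each rising in Granta-519 and changing by −0.14 and −0.01 under the other label. HDAC7 differed by 1.27 ± 0.07, and HDAC10 by 0.37 ± 0.12. HDAC10 was lower in both, with changes of −0.72 in Granta-519 and −1.10 under the JeKo-1 label. PAX5 changed by −0.53 and −0.55, and the difference, 0.01 ± 0.05, missed the threshold (edgeR adjusted p = 0.925).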

How the data were processed

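PolyA RNA from 12 libraries was sequenced, 3 in each of 4 groups, and samples were grouped by their labels. The authors deposited gene counts, whole numbers per gene that were not normalized. STAR and hg19 are named in the submitters' processing notes, which give no counting tool, annotation or strand setting. A further deposited table was not used here. Counts of the 26364 table rows, 28 with date-like names, were filtered by group with filterByExpr, scaled by TMM and fitted with edgeR 4.0.16 in R 4.3.3 (robust quasi-likelihood, 4 group means, 8 residual degrees of freedom). Benjamini-Hochberg adjustment ran over all 15087 tested genes, with a threshold of 0.05, and the SE was taken from the log2 change and the F statistic. The fit was tested on simulated data, and the share of altered genes it had to recover was lowered after the first run, with the fit unchanged. Members and gene lists were chosen with earlier results of these data known. Named genes were the 20 largest rises and 15 largest falls at a mean of 5 CPM or more without overlap, the 10 with the highest CPM changed at least 2-fold each way, up to 4 called genes each way per list at 1 CPM or more, and 27 regulators. Alternatives were RLE, upper-quartile and library-size scaling, no count filter, the 6 Granta-519 libraries alone, DESeq2 1.42.0, glmTreat, a replicate block and leaving out each library. Replicates differed by more than sampling noise (mean chi-square of 1.63 to 3.00 per gene), so none was merged. With 13947676 to 15446421 counts a library, depth limits mainly genes below 1 CPM. Some genes that met these rules are not reported here.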

Additional observations from a re-analysis of the deposited data

Results flagged for a closer look

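Each gene here had a drug effect in Granta-519 that differed from that under the JeKo-1 label by the test of the difference itself (edgeR's quasi-likelihood test, Benjamini-Hochberg over 15087 genes, where 39.5% passed). Values are log2 changes in Granta-519 minus those under the other label, with the SE. Among deacetylases the difference was −0.91 ± 0.10 for HDAC5, −0.54 ± 0.11 for HDAC6, 1.27 ± 0.07 for HDAC7, −0.52 ± 0.16 for HDAC8, −1.85 ± 0.44 for HDAC9 and 0.37 ± 0.12 for HDAC10. HDAC9 was below 1 CPM in Granta-519, and its own change there did not pass (edgeR adjusted p = 0.102). The change in Granta-519 was more positive for MYC (1.24 ± 0.06), BCL6 (2.10 ± 0.08), BCL2L11 (1.11 ± 0.07), IRF4 (0.37 ± 0.11) and BTK (0.30 ± 0.07). BTK and HDAC10 were lower in both, with changes of −0.40 and −0.72 in Granta-519 and of −0.71 and −1.10 under the JeKo-1 label. The change in Granta-519 was more negative for BCL2 (−0.55 ± 0.07), CDKN1A (−0.72 ± 0.07), MCL1 (−0.14 ± 0.06), EZH2 (−0.22 ± 0.06) and HEXIM1 (−0.31 ± 0.08). These genes had positive changes under both labels, smaller ones in Granta-519. For CCND1 the difference was −3.11 ± 0.46, but under the JeKo-1 label the gene was near 0, with a mean of 0.123 CPM without and 0.934 CPM with chidamide, and 49 counts over 6 libraries. Of 18 alternatives the difference passed in 10 for MCL1, 14 for IRF4, 15 for HDAC10, 16 for BTK and 17 for HDAC8, and in all 18 for the others named here. SOX11, H1F0 and KLF2 were at 0 counts under the JeKo-1 label, and no difference could be estimated for them.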

How the results depend on the processing

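Leaving out 1 Granta-519 library at a time gave 10180 to 10388 called genes, 3148 to 3263 changed at least 2-fold, 2777 to 2885 of them higher and 335 to 396 lower. Leaving out any of the 12 libraries in turn gave 5504 to 5867 genes that differed between the lines, with 2736 to 2987 more positive. Tested against a fold of 2, 1885 genes passed, 1745 higher and 140 lower. With no count filter 587 genes fell at least 2-fold, and 1733 were more positive and 4669 more negative in Granta-519. With library size alone 1919 were more positive. Rises made up 55.8% of calls and from 49.3% to 64.0% over the alternatives. Medians of 6 lists changed sign. With the 6 libraries alone they were −0.0167 for caspases and −0.0291 for p53 targets, and with no count filter −0.0553, −0.0677 and, for tubulins, −0.0255. Under upper-quartile scaling they were 0.0313 for Polycomb, 0.0842 for elongation and 0.0430 for snoRNA hosts. The elongation median was 0.0250 under RLE, 0.0221 in DESeq2 and −0.0527 to 0.0115 when 1 library was left out, above 0 without chidamide replicate 3 or vehicle replicate 1. The cause was not tested. Of 340 named genes 316 kept every call over 13 alternatives. Same-numbered vehicle and chidamide libraries correlated at 0.104, 0.0292 and 0.179 in their deviations, and differently numbered ones at −0.16 to 0.0779. For each vehicle library the same-numbered value was the highest. The labels do not say that the numbers mark pairs, so the block was kept as an alternative. The replicate block gave 10776 genes called in Granta-519, with 2720 genes called and at least 2-fold higher in Granta-519, and 6234 genes that differed between the lines.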
